A study of Mus musculus with 79 samples.

Results

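The 10 genes described here belong to the circadian clock of the mouse: Arntl (Bmal1), Clock, Per1, Per2, Per3, Cry1, Dbp, Nr1d1, Nr1d2 and Ciart. They were chosen by symbol as core clock genes and their direct outputs, and all 10 were found among the 55471 gene identifiers of the count table and passed the filter on low counts in both regions. Their expression was followed in the medial prefrontal cortex (mPFC) and the ventral hippocampus (vHipp) of the same animals. The questions were whether stress or ketamine moved them, and whether both regions of a mouse carried the same clock state.

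The animals were 40 wild-type male CD-1 mice, 9 to 10 weeks old at the start, with 10 in each of 4 groups: CTRL saline, CTRL ketamine, CSDS saline and CSDS ketamine. CSDS mice had been through 21 days of chronic social defeat stress, in which a mouse is repeatedly exposed to an aggressive one, and CTRL mice had not. All mice then lived in groups of 4 in an observed arena, the social box, and received a single injection of saline or of (R,S)-ketamine at 10 mg/kg, and the tissue was taken 7 days later, so an acute drug response was not measured. Bulk RNA sequencing gave 79 libraries, 39 of the mPFC and 40 of the vHipp. Mouse 5 of the CSDS ketamine group entered with its vHipp alone, its mPFC being not analysed here, which left 9 mPFC libraries in that group and 39 mice with both regions. Social rank was not used here. Lights came on at 7 a.m. for 12 h. Trunk blood was taken at the endpoint at 8 a.m., and the hour for each single brain is not given in the labels, so the levels of single mice were not placed on the daily cycle. Ketamine and saline are compared by the treatment in the labels, while some mouse numbers carry the other treatment where the study shows behavior by animal.

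In the clock of mammals, ARNTL and CLOCK bind E-boxes as a pair and switch on the Per and Cry genes, whose proteins return to the nucleus and repress that pair. The nuclear receptors NR1D1 and NR1D2 (REV-ERB alpha and beta) form another loop by repressing Arntl, DBP is an output factor that acts through D-boxes, and CIART (CHRONO) is a further repressor of the ARNTL and CLOCK pair. In most tissues Arntl therefore peaks in a different part of the day than Dbp, Nr1d1 and the Per genes. Per1 is also known as a gene that neuronal activity and glucocorticoids induce within hours.

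The sequence just upstream of the RefSeq start site shows which of these control letters some of the genes carry. RefSeq windows of 250 bases on GRCm38.p6 were matched for 9 of the 10 genes, with 13 windows in all, and the table had no entry for Per2. Ciart, on chromosome 3, and Cry1, on chromosome 10, are shown with a window of Per1, on chromosome 11, because they hold the E-box CACGTG. Per3, on chromosome 4, is shown because it holds D-boxes. Each is printed 5′ to 3′ on the strand of the gene, and capitals mark the motif.
Ciart, chr3:95882229-95882478, minus strand: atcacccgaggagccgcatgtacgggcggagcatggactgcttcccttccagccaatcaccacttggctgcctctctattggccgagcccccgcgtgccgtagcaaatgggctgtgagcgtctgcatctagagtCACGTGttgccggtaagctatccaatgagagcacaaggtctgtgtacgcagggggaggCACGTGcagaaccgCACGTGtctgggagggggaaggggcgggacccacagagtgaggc
Cry1, chr10:85185055-85185304, minus strand: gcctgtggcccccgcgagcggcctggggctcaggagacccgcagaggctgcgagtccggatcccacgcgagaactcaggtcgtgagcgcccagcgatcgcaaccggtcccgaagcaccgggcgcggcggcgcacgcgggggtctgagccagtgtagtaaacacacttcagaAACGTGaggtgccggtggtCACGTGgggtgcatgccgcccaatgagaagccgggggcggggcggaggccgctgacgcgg
Per1, chr11:69098699-69098948, plus strand: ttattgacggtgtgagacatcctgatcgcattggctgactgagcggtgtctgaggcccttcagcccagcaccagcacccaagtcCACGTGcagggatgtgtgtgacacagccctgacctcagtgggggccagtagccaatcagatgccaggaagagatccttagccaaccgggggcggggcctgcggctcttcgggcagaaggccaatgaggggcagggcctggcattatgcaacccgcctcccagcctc
Per3, chr4:151044666-151044915, minus strand: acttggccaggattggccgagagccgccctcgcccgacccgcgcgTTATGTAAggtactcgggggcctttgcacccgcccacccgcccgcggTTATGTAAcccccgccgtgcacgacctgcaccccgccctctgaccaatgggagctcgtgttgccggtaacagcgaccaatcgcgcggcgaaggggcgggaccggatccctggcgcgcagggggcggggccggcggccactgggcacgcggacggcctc

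Ciart held 3 E-boxes, the nearest starting 44 bases before the start site, and Cry1 and this window of Per1 held 1 each. Cry1 also carried the E-box variant CACGTT, which reads AACGTG on the strand shown. Per3 carried 2 D-boxes of the letters TTATGTAA. On both strands, CACGTG was present in 6.02%, CACGTT in 3.85% and a D-box of the letters TTATGTAA or TTACGTAA in 0.929% of 32817 RefSeq windows of the same length. A window of Nr1d1, not shown, held CACGTT as well. The ROR element TAGGTCA and the cAMP response element TGACGTCA, found in 2.24% and 1.55% of those windows, were in none of the members' windows. A match is a description of letters and not a bound site, and the absence of a match elsewhere says only that the letters are not in these windows.

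Levels are given as CPM, the counts of a gene scaled to the total of its library, adjusted by TMM normalization within each region. Counts of mice and ratios between regions rest on these CPM, while the edgeR test between regions normalized both regions together. Comparisons between genes use CPM per kilobase of exon. On that scale Nr1d1 was the highest of the 10 genes in both regions, with a mean of 45.1 CPM per kb in the mPFC and 25.9 in the vHipp. Dbp followed with 24.8 and 14.3, Nr1d2 with 20.6 and 14.2, and Per1 with 18.7 and 12.6. The remaining 6 genes lay between 4.61 and 8.81 in the mPFC and between 3.10 and 7.80 in the vHipp, with Per3 the highest of them. Ciart and Cry1 were lowest, at 5.70 and 4.61 CPM per kb in the mPFC and 3.10 and 3.11 in the vHipp. Some neighbours in this order, such as Ciart and Cry1 in the vHipp, did not differ beyond the spread between mice.

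The region of a library was checked on marker genes before the regions were compared. The summed level of 6 cortex markers lay between 756 and 1133 CPM in the mPFC and between 242 and 351 CPM in the vHipp, and that of 6 hippocampus markers between 757 and 1363 CPM in the vHipp and between 344 and 750 CPM in the mPFC, so that the 2 regions did not overlap on either list. The sum of 6 choroid plexus markers reached 710 CPM in the vHipp of mouse 9 and 90.1 CPM in that of mouse 13, both CSDS saline, and at most 30.2 CPM in the other libraries of that region. Total counts per library ranged from 11726129 to 41767119, with a median of 19638060. Since these are bulk punches of tissue, more cells of a kind and more RNA per cell cannot be told apart.

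Most of the clock genes were higher in the mPFC than in the vHipp of the same mouse. With each mouse as a block, edgeR's quasi-likelihood test called 9 of the 10 genes higher in the mPFC at an adjusted p under 0.05, where 24.7% of 31497 genes were called in that direction. Ciart stood 1.79-fold higher (log2 0.84, 95% interval 0.76 to 0.92), Nr1d1 1.69-fold (log2 0.76, 0.71 to 0.81) and Dbp 1.68-fold (log2 0.75, 0.68 to 0.82). Cry1, Per1, Arntl, Nr1d2 and Per2 were between 1.37-fold and 1.43-fold higher. Clock, the partner of Arntl, did not pass (log2 0.04, interval -0.01 to 0.08, adjusted p = 0.171 with Benjamini-Hochberg adjustment).

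The individual mice show how uniform this was. Dbp ran from 46.3 to 106.1 CPM (median 74.996) in the mPFC and from 26.5 to 61.1 CPM (median 42.7) in the vHipp. Nr1d1 lay between 114.4 and 163.3 CPM (median 139.8) in the mPFC and between 57.2 and 99.3 CPM (median 80.6) in the vHipp, so its regions did not overlap in any library. Arntl lay between 34.4 and 56.0 CPM (median 44.6) in the mPFC and between 21.4 and 43.2 CPM (median 30.6) in the vHipp. Within a mouse, Arntl, Per1, Cry1, Dbp, Nr1d1, Nr1d2 and Ciart were higher in the mPFC in 39 of 39 mice, and Per2 in 38 of 39.

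Per3 and Clock departed from the rest. Per3, the Per gene that is dispensable for the core loop, was 1.09-fold higher in the mPFC (log2 0.13, edgeR adjusted p = 0.00386), with 84.7 ± 10.1 CPM there (SD, n = 39) against 74.9 ± 12.2 CPM in the vHipp (SD, n = 40), and it was higher in 32 of 39 mice. Clock had 101.5 ± 10.7 CPM in the mPFC and 95.9 ± 11.3 CPM in the vHipp, and it was higher in the mPFC in 31 of 39 mice. Both counts of mice rest on CPM normalized within each region. For Clock the median ratio of these CPM was 1.07, beside 1.03-fold in the edgeR test with both regions normalized together. The mice were also divided into 5 sets by their numbers, each set a run of 4 consecutive CSDS mice with a run of 4 consecutive CTRL mice. Clock passed the edgeR test without set 1 (log2 0.07, adjusted p = 0.012) and without set 2 (log2 0.06, adjusted p = 0.044). Among 20 other genes of the clock, 13 were called higher in the mPFC and 4 lower by the same test, where 24.7% of all genes were called higher and 25.2% lower. Npas2, the paralogue of Clock, was 2.87-fold higher in the mPFC (log2 1.52), Hlf, a relative of Dbp, 2.07-fold, and Rora, the activator that competes with the NR1D receptors, 1.88-fold. The lower ones were Fbxw11, Fbxl21, Csnk1d and Tef, with log2 differences of -0.28, -0.23, -0.22 and -0.06.

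No change of the 10 genes with stress or ketamine was detectable in either region. In each region 7 comparisons were tested: CSDS against CTRL in both treatments together, in saline-treated and in ketamine-treated mice, ketamine against saline in both stress groups together, in CTRL and in CSDS mice, and the interaction. In edgeR's quasi-likelihood test, 0 of 10 genes passed an adjusted p of 0.05 in any of the 14 comparisons, where 0% of all genes passed, and 0 of 10 had an unadjusted p under 0.05 in any of them. The share of all genes with an unadjusted p under 0.05 was, for the mPFC and the vHipp in turn, 3.52% and 9.71% for stress in both treatments, 2.94% and 5.57% for stress in saline-treated mice, and 5.8% and 5.42% for stress in ketamine-treated mice. For ketamine it was 3.07% and 3.39% in both stress groups, 3.64% and 2.88% in CTRL mice, and 4.32% and 2.9% in CSDS mice. For the interaction it was 5.31% and 2.84%. These shares come from a fit with no term for mice handled together. With runs of 4 consecutive mouse numbers as a random effect in limma-voom, the shares for stress in both treatments were 1.53% in the mPFC and 6.09% in the vHipp, and 0 of all genes passed adjustment in any of the 14 comparisons.

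The fold changes were small as well as uncalled. Over the 140 values, log2 fold changes of the 10 genes lay between -0.17 and 0.17, and their 95% intervals stayed between -0.37 and 0.44, that is, between 0.773 and 1.36 times. With both treatments together, the intervals for stress ran from -0.15 to 0.29 in the mPFC and from -0.28 to 0.22 in the vHipp, and with both stress groups together, those for ketamine from -0.16 to 0.23 and from -0.20 to 0.19. These bounds are the extremes over the 10 genes, and single genes had narrower intervals: for stress in the mPFC that of Nr1d1 ran from -0.09 to 0.08 and that of Arntl from -0.10 to 0.11. For each gene, changes inside its own interval could not be told apart from no change with this number of mice.

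Dbp, the member with the widest swing between mice in the mPFC, illustrates the overlap of the groups. In the mPFC it ranged from 48.2 to 90.7 CPM (median 75.1) in CTRL saline, from 46.3 to 88.5 (median 70.1) in CTRL ketamine, from 51.9 to 106.1 (median 80.3) in CSDS saline and from 63.3 to 101.6 (median 74.996) in CSDS ketamine mice. In the vHipp the 4 medians were 41.5, 42.1, 44.0 and 44.2 CPM in the same order. The groups overlapped almost entirely, and the log2 fold change for stress was 0.11 ± 0.08 (SE) in the mPFC and 0.05 ± 0.08 in the vHipp. The SD of Dbp between mice of a group, 0.27 on the log2 scale in the mPFC, exceeded that of 91.1% of 7945 genes of similar expression, whereas Nr1d1, with 0.13, lay near their median of 0.135.

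The 3 Per genes leaned in opposite directions in the 2 regions. With both treatments together, the log2 fold change of CSDS against CTRL mice was 0.11 for Per1, 0.11 for Per2 and 0.10 for Per3 in the mPFC, and -0.09, -0.04 and -0.14 in the vHipp, none of them past the test. In the mPFC, Per1 ranged from 77.9 to 114.3 CPM (median 98.1) in CTRL saline, from 80.4 to 138.3 (median 102.1) in CTRL ketamine, from 86.5 to 138.8 (median 106.2) in CSDS saline and from 86.01 to 128.5 (median 122.1) in CSDS ketamine mice. In the vHipp it ranged from 62.4 to 87.7 (median 71.0), 62.6 to 86.2 (median 71.5), 52.4 to 79.1 (median 69.3) and 52.7 to 79.7 CPM (median 69.3) in the same order. The groups overlapped in both regions.

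The ratio of the regions within a mouse removes what both share. For Per1 the mPFC over vHipp ratio ran from 1.14 through a median of 1.38 to 1.68 in 20 CTRL mice and from 1.25 through 1.57 to 1.88 in 19 CSDS mice. For Per3 it ran from 0.785 through 1.04 to 1.36 and from 0.972 through 1.22 to 1.86. CSDS mice had the higher medians, and the groups overlapped for both genes. A limma test of this difference between regions, added after the comparisons above had been seen, gave a log2 difference of 0.21 for Per1 (95% interval 0.10 to 0.32), with an unadjusted p of 3.93e-04 and an adjusted p of 0.416. For Per3 the difference was 0.22 (0.07 to 0.37), with an unadjusted p of 0.00508 and an adjusted p of 0.516. This limma fit held no term for mice handled together.

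Ciart and Per2 showed smaller differences of the same kind, 0.18 (0.03 to 0.34) and 0.15 (0.02 to 0.28), and the other 6 genes lay between 0.01 and 0.05. In all, 4 of the 10 genes had an unadjusted p under 0.05, against 8.28% of 27874 genes, and 0 of 10 and 0 of all genes passed adjustment in limma. Per1 and Per3 kept an unadjusted p under 0.05 whichever set of mice was left out, Per2 lost it without set 1, 2 or 4 (up to 0.222), and Ciart without set 3 or 5 (up to 0.158). Of 36 marker genes of 6 tissues and cell types, 10 also had an unadjusted p under 0.05 in this limma test, 3 of them above 0 and 7 below. All 6 endothelium markers lay below 0, with a median of -0.31, and 4 of them had such a p, while among the hippocampus markers Prox1 (0.44) and Calb1 (0.35), among the striatum markers Adora2a (-0.57) and Ppp1r1b (-0.26), among the choroid plexus markers Clic6 (-1.23) and among the cortex markers Rasgrf2 (0.18) did. The summed endothelium markers lay between 110.03 and 166 CPM in CTRL and between 114.2 and 327 CPM in CSDS mice in the vHipp, and between 130.2 and 237 CPM and between 128.8 and 264 CPM in the mPFC. Their part in the differences of the clock genes was not tested. For the ketamine effect, the same limma test of the difference between regions gave 0 of 10 clock genes an unadjusted p under 0.05, and 3.34% of all genes.

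**Figure D1:**
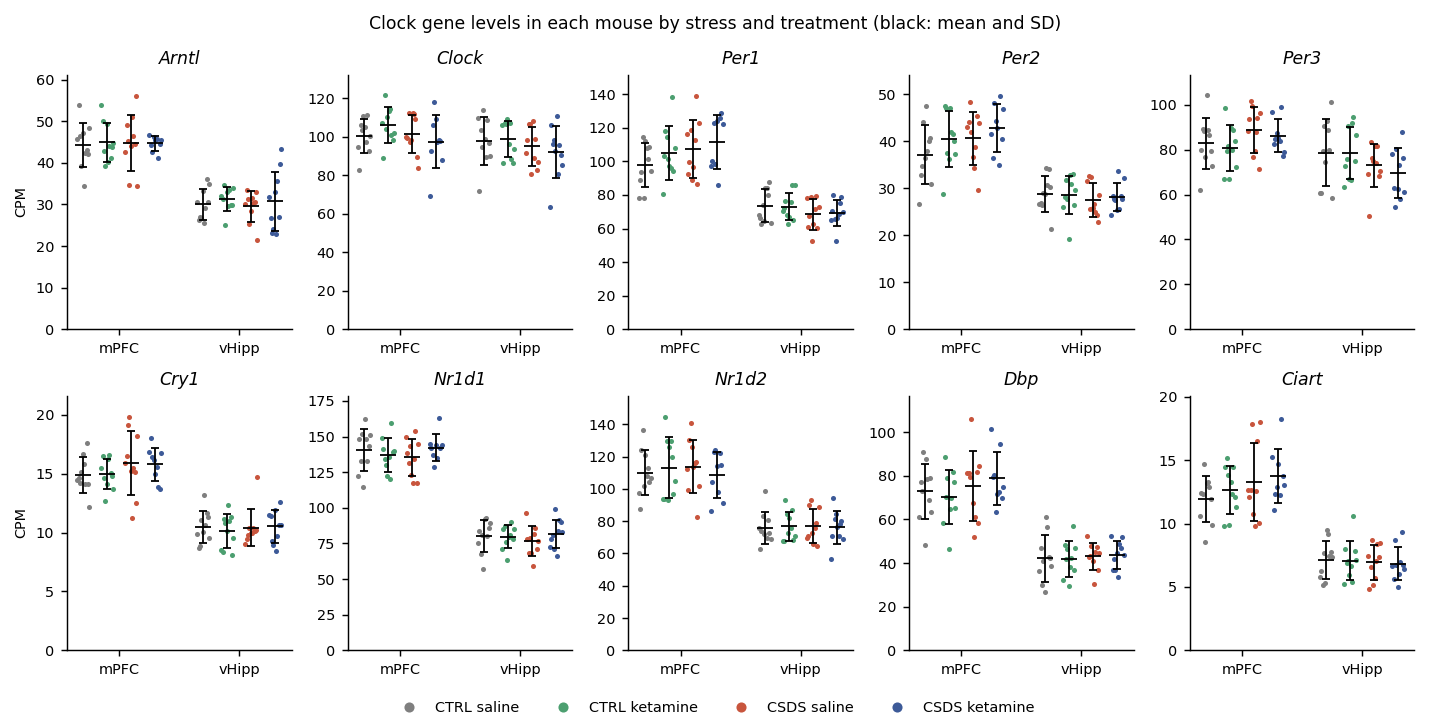
Levels of the 10 clock genes in CPM (vertical axis, from 0) for each mouse, by region and by stress and treatment group (colors), with the mean and SD in black. The 4 groups overlap in every panel, while Nr1d1 lies at or above 114.4 CPM in all mPFC libraries and at or below 99.3 CPM in all vHipp libraries.

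**Figure D2:**
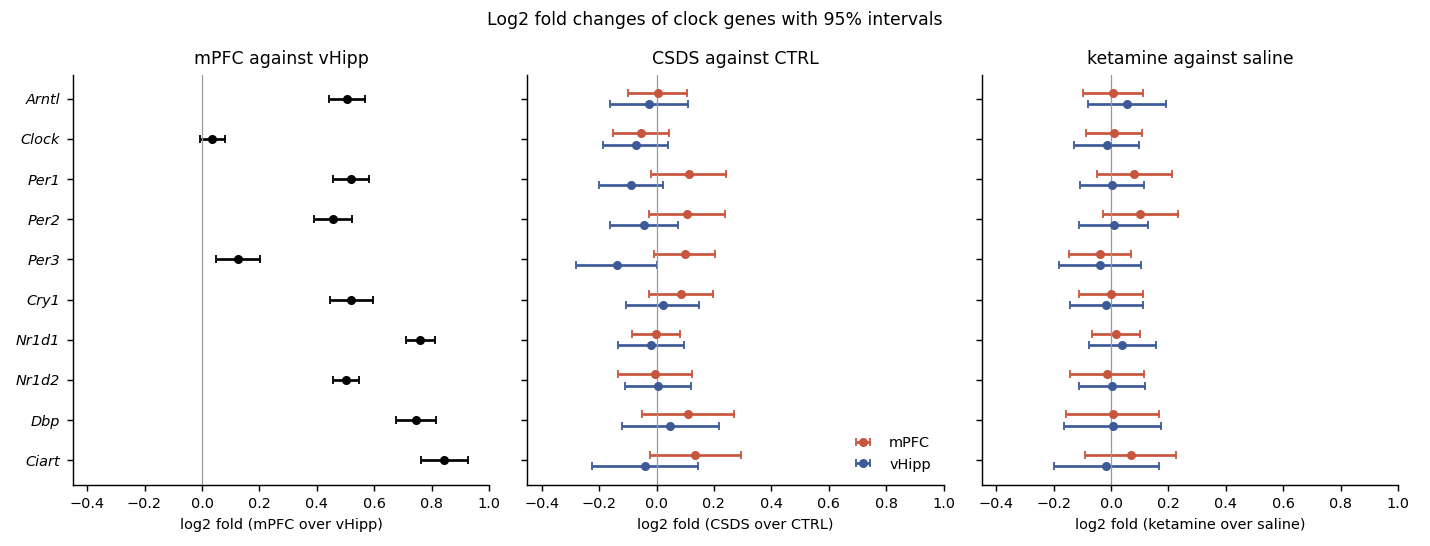
Log2 fold changes with 95% intervals for the mPFC against the vHipp of the same mouse (left), CSDS against CTRL mice (middle) and ketamine-treated against saline-treated mice (right), with the mPFC in red and the vHipp in blue in the last 2 panels. On the left every interval but that of Clock lies above 0, and in the other panels every interval includes 0.

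The genes of neighbouring lists were not called either. By edgeR, 0 of the 20 other clock genes passed adjustment in any of the 14 comparisons, and the same held for 9 genes induced by neuronal activity (Fos, Egr1 and others), 8 induced by glucocorticoids (Fkbp5, Sgk1 and others) and 5 that respond to temperature (Rbm3, Cirbp and heat shock genes). For stress with both treatments together in the mPFC, the median log2 fold change was 0.09 over the 10 clock genes and 0.23 over the activity genes, beside -0.0004 over all genes. Of the 9 activity genes, 3 had an unadjusted p under 0.05 there, where 3.52% of all genes had one. In the vHipp these medians were -0.03 and 0.14, beside -0.0025. The limma difference between regions of the stress effect lay above 0 for 10 of the 10 clock genes and 17 of the 20 others. It did so for 8 of 9 activity, 5 of 5 temperature and 4 of 8 glucocorticoid-induced genes. In these 4 other lists, 3, 0, 1 and 0 genes had an unadjusted limma p under 0.05, in the order given.

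The group means of Arntl lay at 44.3 to 44.9 CPM in the mPFC and 29.6 to 31.3 CPM in the vHipp. In the mPFC the SD was 1.85 CPM in CSDS ketamine mice (n = 9, from 41.1 to 46.7 CPM) and between 4.73 and 6.71 CPM in the other groups. In the vHipp the CSDS ketamine mice had the widest SD, 7.17 CPM (n = 10), beside 2.82 to 3.74 CPM. These differences in spread were seen after the fact and were not tested.

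Although the groups did not separate, mice differed from each other, and both regions of a mouse tended to differ in the same direction. In the mPFC, the mouse lowest in Dbp was mouse 29 in CTRL saline (48.2 CPM), mouse 31 in CTRL ketamine (46.3 CPM) and mouse 10 in CSDS saline (51.9 CPM). In the vHipp the same 3 mice were lowest in their groups, at 26.5, 29.3 and 30.3 CPM, while among CSDS ketamine mice it was mouse 11 in the mPFC and mouse 12 in the vHipp. Mice 10, 29 and 31 all belong to set 3. These mice were also lowest of their groups in Nr1d1 in the vHipp, at 57.2, 63.7 and 59.0 CPM. Over the 10 clock genes and 4 groups of mice with both regions, the same mouse was lowest in both in 16 of 40 cases (40%) and highest in 13 (32.5%), where over all genes of at least 1 CPM the shares were 22.8% and 23.5%.

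Agreement was measured across the 39 mice as the correlation of log2 CPM between the regions, with the mean of each of the 4 groups removed. Positive agreement passed an adjusted p of 0.05 for 8 of the 10 clock genes, against 19.1% of 27874 genes. Among the 15171 genes with a mean of at least 1 CPM in both regions, with p adjusted over them alone, the share was 36.2%. The median r was 0.631 for the 10 genes, 0.171 for all genes and 0.296 for those of at least 1 CPM. One relation per gene was computed, and apart from the 36.2%, p-values were adjusted over all genes. The labels number the libraries of a mouse side by side, so shared processing and the mouse itself cannot be told apart here.

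Nr1d2 agreed most closely, with a Pearson r of 0.757 (permutation p = 1e-05) and a Spearman rho of 0.768 (permutation p = 1e-05), the smallest p that 100000 permutations can give. Per1 had r = 0.679 (permutation p = 2e-05) and rho = 0.690 (permutation p = 1e-05), and Dbp r = 0.665 (2e-05) and rho = 0.598 (1.2e-04). Ciart had r = 0.645 and rho = 0.617, and Nr1d1 r = 0.617 and rho = 0.595, with permutation p between 2e-05 and 2.1e-04. These 5 genes are repressors or outputs that ARNTL and CLOCK drive.

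Clock itself gave r = 0.719 (permutation p = 3e-05) and rho = 0.615 (permutation p = 1.6e-04). Per2 gave r = 0.537 (0.00115) and rho = 0.546 (6.5e-04), and Arntl r = 0.474 (3.8e-04) and rho = 0.501 (9.1e-04), with an adjusted p of 0.023 for Arntl. Per3 did not pass adjustment, with r = 0.402 (permutation p = 0.0182), rho = 0.406 (permutation p = 0.0146) and an adjusted p of 0.070. Cry1 was the member with the least agreement, with r = 0.179 (permutation p = 0.286) and rho = 0.181 (permutation p = 0.269).

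Leaving out the 2 mice farthest from the median in the mPFC lowered r to 0.715 for Nr1d2, 0.629 for Per1, 0.598 for Ciart, 0.546 for Dbp, 0.541 for Clock and 0.532 for Nr1d1, and to 0.313 for Arntl and 0.294 for Per3, while Per2 stood at 0.554 and Cry1 at 0.191. Without mice 9 and 13, which carried choroid plexus markers, r over 37 mice ran from 0.178 for Cry1 to 0.778 for Nr1d2, with 0.688 for Dbp. Within runs of 4 consecutive mouse numbers, with the means of runs and treatments removed, r was 0.722 for Nr1d2, 0.713 for Per1, 0.698 for Clock, 0.692 for Dbp, 0.676 for Ciart, 0.570 for Nr1d1, 0.566 for Arntl, 0.555 for Per2, 0.334 for Per3 and 0.284 for Cry1.

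Some of these calls changed when mice were left out. The 2 mice left out for Dbp above were mice 31 and 29. Without set 3, which holds both, Dbp fell to r = 0.425 and an adjusted p of 0.120, so its call rested on that set. Arntl lost its call without set 2, 3 or 5, and Per2 without set 5 (adjusted p = 0.081). With a set left out, and so fewer mice, r stayed between 0.424 and 0.589 for Arntl and between 0.457 and 0.577 for Per2.

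Of the 20 other clock genes, 8 agreed between the regions by the same rule, beside the 36.2% of all genes of at least 1 CPM and the 19.1% of all genes given above. Without set 4, and also without set 5, 5 of the 20 did. Cry2, the paralogue of Cry1, had r = 0.566, and between 0.514 and 0.679 with a set left out. Rora had r = 0.609, with a rho of 0.406, and fell to 0.404 without the 2 farthest mice, 0.291 with the slope of each library on GC content removed and 0.398 without set 1, where its adjusted p was 0.170. Npas2 and Bhlhe40, both higher in the mPFC, had r = -0.11 and -0.16. All 5 temperature genes agreed over the 39 mice, led by the cold-induced RNA-binding protein gene Rbm3 with r = 0.822. Cirbp, with r = 0.464, lost its call without set 1 (r = 0.248, adjusted p = 0.478) and without set 3 (r = 0.436, adjusted p = 0.106), and Hsph1 without set 3 (r = 0.429, adjusted p = 0.115). Over the 39 mice the rule was met by 3 of 9 activity genes (0 without set 5 and 1 without set 3) and by 2 of 8 glucocorticoid-induced genes (1 without set 2 or 4), shares near or below the 36.2%.

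**Figure D3:**
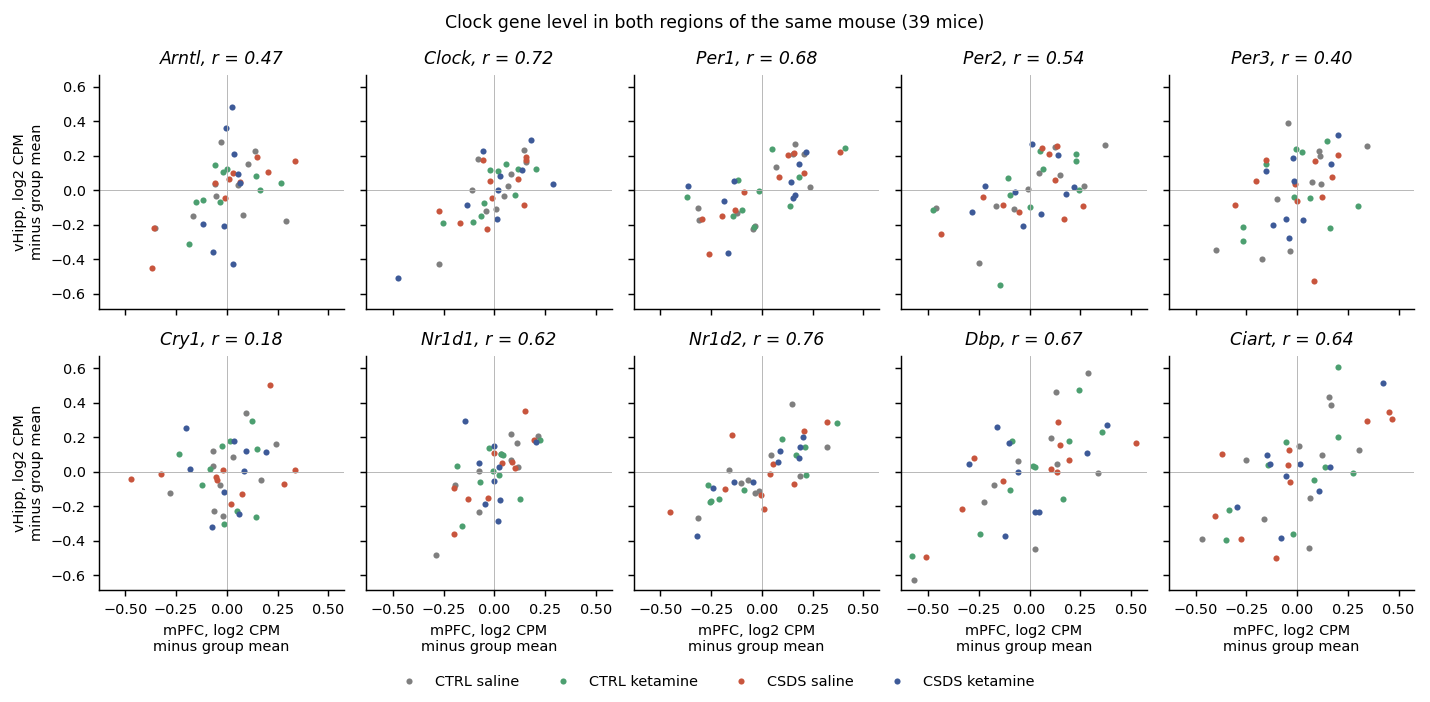
Level in the mPFC (horizontal) and in the vHipp (vertical) of the same mouse for each clock gene, as log2 CPM minus the mean of its group, for 39 mice colored by group. Points follow the rising diagonal most closely for Nr1d2 (r = 0.757) and Clock (r = 0.719), and least for Cry1 (r = 0.179).

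Base composition moved with part of this agreement. In each library, the slope of log2 level on the GC content of genes was computed, and these slopes correlated with r = 0.79 between the regions of a mouse. Clock, whose transcript has 40.9% GC, followed the slope with r = -0.87 in the mPFC and -0.82 in the vHipp, and Nr1d2, with 41.8% GC, with -0.78 and -0.57. Per1 had -0.03 and 0.25, Ciart 0.04 and 0.37, Dbp 0.26 and 0.53, and Nr1d1 0.37 and 0.41. After the slope was removed from each library, agreement was 0.705 for Per1, 0.685 for Dbp, 0.674 for Nr1d2, 0.662 for Ciart, 0.648 for Nr1d1, 0.568 for Clock, 0.539 for Per2 and 0.459 for Arntl, whose adjusted p rose to 0.0603.

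The clock genes also varied with one another. Taking 1 gene in the mPFC and another in the vHipp, so that no library entered both sides, Per1, Per2, Per3, Dbp, Nr1d1, Nr1d2 and Ciart correlated positively in 42 of 42 pairings, with a median r of 0.442 and a range of 0.119 to 0.690. Arntl correlated negatively with those 7 genes in 14 of 14 pairings, with a median of -0.412 and a range of -0.742 to -0.175. The strongest was Arntl in the mPFC with Nr1d2, a repressor of Arntl, in the vHipp (r = -0.742). With any set left out, 41 or 42 of the 42 pairings stayed positive and 0 of the 14 of Arntl became so, with medians of 0.380 to 0.501 and of -0.473 to -0.373. These values are descriptions across the same 39 mice, and the pairings share mice and libraries.

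Clock did not follow that pattern, and Cry1 followed the 7 genes in sign at a lower r. Clock was positive in 6 of its 14 pairings with the 7 genes, with a median of -0.0745, and Cry1 in 13 of 14, with a median of 0.205. With the GC slope removed the counts were 42 of 42 for the 7 genes (median 0.521) and 0 of 14 positive for Arntl (median -0.444). Within a region, where both genes come from the same library and share its noise, the 7 genes were positive in 21 of 21 pairs in the mPFC and in the vHipp, with medians of 0.552 and 0.354. Arntl was negative with all 7 in the mPFC (-0.659 to -0.398) and ranged from -0.307 to 0.115 in the vHipp, a difference between regions that was not tested.

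**Figure D4:**
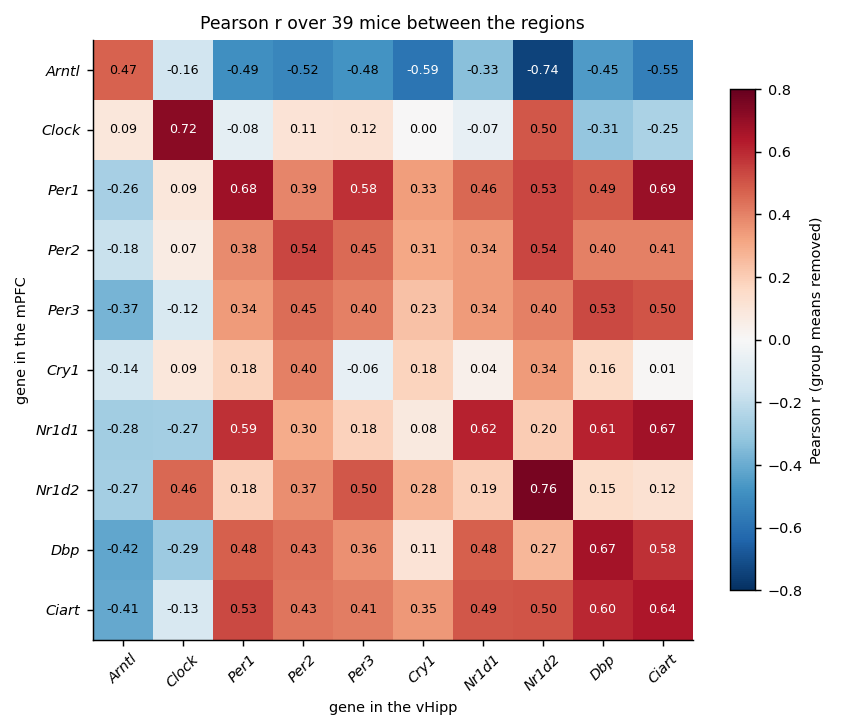
Pearson r over 39 mice between each clock gene in the mPFC (rows) and each in the vHipp (columns), after removal of group means, with red positive and blue negative. The Arntl row and column are blue against the Per, Dbp, Nr1d1, Nr1d2 and Ciart genes (-0.742 to -0.175), which are red among themselves.

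A ranking by likeness to Dbp placed these genes among all others. Likeness was the mean of 2 correlations over 39 mice, Dbp in one region with the gene in the other, over 15171 genes with at least 1 CPM in both regions. Ciart scored 0.59, Nr1d1 0.55, Per1 0.48, Per3 0.44 and Per2 0.42, while Arntl scored -0.43, at or below which lay 0.204% of genes. With the GC slope removed Arntl scored -0.56, at or below which lay 0.0264%. Nr1d2 scored 0.21 and rose to 0.62 without the slope.

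The 8 genes most like Dbp outside the list were Ap1g2 (0.61), Ldb1 (0.59), Rbm3 (0.58), Ddit4 (0.57), Dnase1l2 (0.53), Snrnp70 (0.53), Ankrd16 (0.53) and Max (0.52). The 8 least like it were Hsp90b1 (-0.61), Hsph1 (-0.56), Pdia3 (-0.55), B230217C12Rik (-0.54), Cdc42bpa (-0.51), Hsp90aa1 (-0.50), Hnrnpc (-0.49) and Omg (-0.49). Hsph1 and Hsp90aa1 encode heat shock chaperones, and Hsp90b1 and Pdia3 encode chaperones of the endoplasmic reticulum. With the GC slope removed, 5 of the highest 8 and 4 of the lowest 8 stayed among the 8 at their end. The single names depended on the mice: without set 3, which holds the mice lowest in Dbp, 3 of the highest and 0 of the lowest stayed, and without set 1, 1 and 4. Without set 3, Ciart scored 0.47, Per3 0.40, Per1 0.36, Per2 0.36, Nr1d1 0.27 and Arntl -0.40, and Rbm3 0.42 and Hsph1 -0.43.

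Dbp moved with Hsph1 and Rbm3 of the same library, both of them at an end of the ranking above. Against Hsph1 its r was -0.88 in the mPFC and -0.80 in the vHipp, and against Rbm3 it was 0.72 and 0.44. Of the other temperature genes, Cirbp gave 0.59 and 0.71 within the regions and a likeness of 0.39, Hspa1a gave 0.08 and -0.52 and a likeness of -0.04, and Hspa1b had a likeness of 0.04. Across regions, Dbp in the vHipp and Hsph1 in the mPFC gave -0.71, and Dbp in the mPFC and Hsph1 in the vHipp -0.41. Without set 3 these values were -0.53 and -0.33, and those within a region -0.85 in the mPFC and -0.82 in the vHipp. For Rbm3 the values across regions were 0.67 with Dbp in the mPFC and 0.48 with Dbp in the vHipp, and 0.57 and 0.28 without set 3. Within a region those of Rbm3 without set 3 were 0.60 in the mPFC and 0.29 in the vHipp. Per1 followed the activity gene Fos with 0.78 in the mPFC and 0.46 in the vHipp, while Dbp did so with 0.20 and 0.29. These are descriptions over 39 mice, and the part of temperature, activity or the hour of collection in them was not tested.

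Markers of neighbouring tissue moved with some members. In the vHipp, Clock followed the sum of 6 hippocampus markers with r = 0.74, and Arntl, Cry1, Nr1d1 and Dbp followed that of 6 striatum markers with 0.56, 0.49, 0.43 and 0.42. In the same region Nr1d1 followed the endothelium markers with 0.52, Per3 the cortex markers with 0.49 and the oligodendrocyte markers with -0.47, Cry1 the cortex markers with 0.47, and Per2 the hippocampus markers with 0.42. In the mPFC, Per3 followed the hippocampus markers with 0.49, Nr1d2 the oligodendrocyte markers with 0.44 and Nr1d1 the endothelium markers with 0.43. Striatum markers summed to between 52.0 and 126.7 CPM in the vHipp and were all detected in every library, and oligodendrocyte markers to between 573 and 6329 CPM in the mPFC. Their part in the results was not tested.

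Mice with neighbouring numbers were compared last, as a stand-in for shared handling. Runs of 4 consecutive mouse numbers gave 5 runs of CSDS mice (numbers 1 to 20) and 5 of CTRL mice (21 to 40), and set 1 holds runs 1 and 6, set 2 runs 2 and 7, and so on. Whether a run shared a social box or a time of collection is not stated. By the library numbers in the labels, each set forms an unbroken block, and the regions of a mouse stand side by side. Whether this was the order of processing is not stated, and its part in the results was not tested. In edgeR's test of runs within stress groups, 2 of the 10 clock genes were called in the mPFC, where 7.86% of genes were, and 0 of 10 in the vHipp, where 2.38% were and where 3 clock genes, Cry1, Nr1d2 and Per1, had an unadjusted p under 0.05. The share of all genes under that unadjusted threshold was 21.7% for the mPFC runs and 15% for the vHipp runs.

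Nr1d2 in the mPFC differed most between runs (F = 7.93, edgeR adjusted p = 5.61e-04). Its run means were 100.6, 131.2, 119.3, 113.2 and 97.5 CPM in CSDS runs 1 to 5 and 93.1, 133.6, 110.3, 117.7 and 103.1 CPM in CTRL runs 6 to 10. The second run was highest under both conditions: in run 7 its 4 mice lay between 124.3 and 144.4 CPM, above all 4 mice of run 6, at 87.7 to 97.4 CPM. In the vHipp, runs 2 and 7 also had the highest means, 89.7 and 83.6 CPM, where the test did not pass (adjusted p = 0.0739). Clock in the mPFC (F = 3.61, adjusted p = 0.0484) ranged from 89.8 to 109.9 CPM between runs. Without set 2 the adjusted p of Nr1d2 in the mPFC was 0.060, and Clock lost its call without set 1, 2, 3 or 5 (up to 0.242). In the mPFC both genes followed the GC slope with a negative r (-0.78 and -0.87), and the part of that slope in the runs was not tested.

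**Figure D5:**
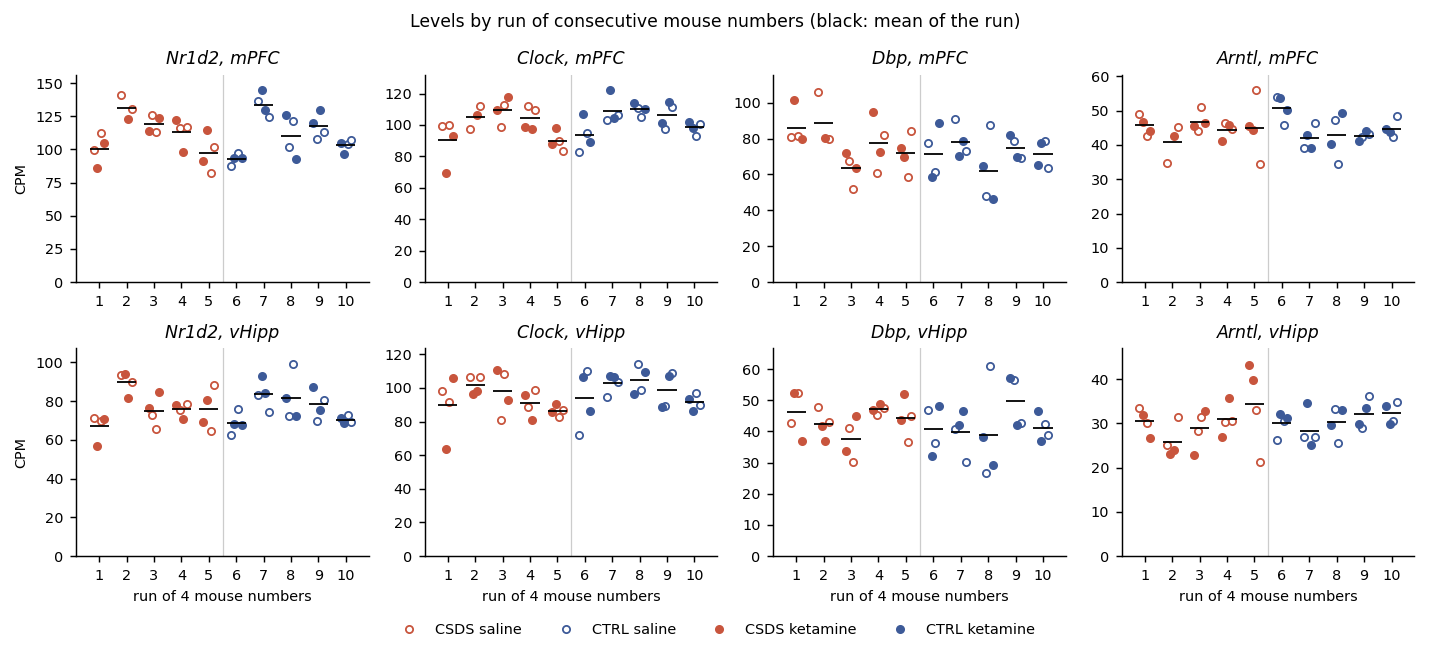
Levels in CPM (vertical axes, from 0) of Nr1d2, Clock, Dbp and Arntl in the mPFC (top) and the vHipp (bottom) by run of 4 consecutive mouse numbers, CSDS mice in runs 1 to 5 and CTRL mice in runs 6 to 10, with filled points for ketamine and black bars for run means. Nr1d2 in the mPFC peaks in runs 2 and 7, at 131.2 and 133.6 CPM.

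Some counts of these genes could hold reads of a neighbour. In the annotation, exons of Dbp (chr7:45705088-45710203) overlap 539 bases of Sphk2 on the opposite strand, those of Nr1d1 (chr11:98767932-98775333) 263 bases of Thra, and those of Arntl (chr7:113207465-113314126) 33 bases of an antisense gene, Gm45355. The libraries kept the strand, and the strand setting of the counting is not given in the sources used here, so the levels of these 3 genes are uncertain to that extent.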

How the data were processed

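RNA from 1 mm tissue punches of both regions of each brain was made into stranded mRNA libraries by the authors, after removal of samples of low RNA integrity. The authors deposited raw read counts, whole numbers per gene of GRCm38, with no normalization. The submitters' processing notes name bcl2fastq 2.20.0.422 and CASAVA, and the aligner and counter are not given in the sources used here. Of 55471 identifiers, 55144 were matched to a symbol in GENCODE release M21.

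The 10 genes, the other lists and the tests were chosen with earlier results of these data known. The text names the members, the listed clock, activity, glucocorticoid-induced and temperature genes, and the 8 genes most and least like Dbp. Groups came from the labels. For some mice the numbers shown with the study's behavioral data carry the other treatment, so comparisons of ketamine with saline rest on the labels, and the difference was not resolved. Also per the labels, libraries with the same mouse number come from the same animal, which pairs the regions. No 2 libraries were identical.

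Genes with more than 10 counts in total and detected in more than 3 libraries of a region were tested (28993 in the mPFC, 28991 in the vHipp) with edgeR 4.0.16 in R 4.3.3, using TMM normalization, the quasi-likelihood test, all 4 groups in one fit, no covariate and two-sided p-values with Benjamini-Hochberg adjustment at 0.05. The study's own model was DESeq2 with the social box as a covariate, which was not used here. Log2 CPM had a prior count of 2. Agreement was computed with numpy 2.4.6 and scipy 1.17.1, with 100000 permutations of mice within groups for the 10 genes, and its adjusted p came from the analytic p of r over all genes. The difference between regions of the stress and ketamine effects used limma 3.58.1. Other settings were DESeq2 1.42.0, both tools with the set of mouse numbers, limma-voom taking each run of mice as a random effect, fits of single pairs of groups, other normalizations and filters, a prior count of 0.5, and each set left out. The computations were tested on simulated data.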

Additional observations from a re-analysis of the deposited data

Results flagged for a closer look

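The levels of each clock gene within each group of 9 or 10 mice were searched for a mouse far from the others, by the gap of the highest or lowest mouse to the next as a share of the group's whole range. Of 80 groups, 7 held such a mouse, and chance gives about 1 in 20. In the mPFC, Nr1d1 was highest in mouse 16 of the CSDS ketamine group (gap 0.505 of the range), which had 163.3 CPM beside 144.7 CPM in the next. In the vHipp, Cry1 was highest in mouse 19 of the CSDS saline group (0.712), at 14.7 beside 10.4 CPM.

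The other 5 were low values in the vHipp. Per3 was lowest in mouse 4 of CSDS saline (0.603), Per2 in mouse 31 of CTRL ketamine (0.558), Arntl in mouse 26 of CTRL ketamine (0.525), Per1 in mouse 11 of CSDS ketamine (0.502) and Clock in mouse 24 of CTRL saline (0.469). Mouse 31 is also one of the mice lowest in Dbp in both regions.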

How the results depend on the processing

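The absence of calls for the 10 clock genes in the stress and ketamine comparisons held under every other setting run. Over 1760 values of the 10 genes under those settings, the lowest adjusted p was 0.21, 14 had an unadjusted p under 0.05, and 7.78% had the other sign, from reported values of at most 0.07 (log2) in size. Among values for both treatments or stress groups together, those of ketamine in the vHipp turned for Arntl without set 5 (range over sets left out -0.0102 to 0.0799) and for Per3 without set 3 (-0.0919 to 0.0156). Over all genes, DESeq2 called 14 for stress with both treatments in the vHipp, and with the set as a covariate it called 23 there, 2 in the mPFC, 3 for stress in ketamine-treated mice in the mPFC and 1 for stress in saline-treated mice in the vHipp. The share of genes with an unadjusted p under 0.05 for stress with both treatments in the mPFC, 3.52%, was 2.31% with DESeq2, 2.12% with filterByExpr and 1.53% with runs as a random effect.

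Without the replicate block, that is, without pairing the regions by mouse, 15369 genes differed between the regions in place of 15709, and no clock gene changed its call. Between runs, no filter gave 12.8% of genes in the mPFC, with 5 clock genes, and 10.1% in the vHipp, with 3, and edgeR's filterByExpr gave 16.0% and 5.28%, beside 7.86% and 2.38%. Leaving out a set gave 3.01% (set 5) to 7.38% of genes with 0 (set 2) to 2 clock genes in the mPFC, and 0.49% (set 2; 1.21% without set 5) to 2.57% with 0 to 1 (set 3) in the vHipp. Genes agreeing between regions numbered 3231 with run and treatment means removed, 2359 with the GC slope removed (chosen after seeing the data), and 3148 (set 1) to 4648 without a set, beside 5328. Likeness to Dbp without the GC slope kept 5 and 4 of 8 genes, and leaving out a set (chosen after seeing the data) kept 1 (set 1) to 6 of the highest and 0 (set 3) to 6 of the lowest. The cause of these shifts was not tested, apart from fewer mice where a set was left out. The lowest level of a clock gene in a library was 4.81 CPM, and the effect of counting error at that depth was not tested.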
